A study of Neurospora crassa with 33 samples.

Results

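The 100 genes described here are long genes of Neurospora crassa whose ribosome density, the level of ribosome protected fragments (RPFs) over the level of mRNA, was about level or higher in Δcpc-3 strains than in WT strains, as computed from the midpoints of the deposited intervals. They were chosen from the measured densities of all 9729 genes of the series. Genes with a coding sequence (CDS) of 1500 to 6000 nt and a mean mRNA level of at least 10 ppm in each strain, 2296 genes in all, were ranked by the smallest of their 4 log2 density differences, Δcpc-3 minus WT, 1 for each reporter background. The first 100 are the members and the other 2196 genes are the rest of the range. A level is the midpoint of the deposited FPKM interval, which is per kilobase of CDS, scaled to a sum of 1e+06 per library (parts per 1e+06, ppm), so levels of different genes can be set side by side. The genes NCU02580, NCU05850, NCU07063, NCU09056 and those compared by a shared symbol below were picked after their values were seen. Because the densities chose the members, every strain difference of density, RPF or mRNA below is a description of the choice and carries no test.

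The study asked how codon usage and CDS length affect translation, and what role the kinase CPC-3 has in this. Its comparison of ribosome density between Δcpc-3 and WT strains formed part of that work, beside protein and in vitro translation assays. The strains were a cpc-3 deletion strain (Δcpc-3) and the wild type (WT), and each carried 1 of 4 Flag-tagged EDP reporters: 3xOPT-EDP or 1xOPT-EDP, with 3 copies or 1 copy of the CDS in optimized codons, or 3xWT-EDP or 1xWT-EDP, with the same copies in native codons. All reporters sat at the csr-1 locus behind the ccg-1 promoter in homokaryotic transformants, so that both strains, the WT included, carry a reporter and its bar resistance gene. There were 13 RPF libraries from Δcpc-3 and 12 from WT strains, with 3 per reporter and 4 for Δcpc-3 1xWT-EDP, beside 4 mRNA libraries from Δcpc-3 and 4 from WT strains, 1 per reporter. All came from mycelia grown in minimal medium with 2% glucose for 2 days and then with shaking in constant light for 12 h, and cycloheximide was present only in the lysis buffer, at 0.1 mg/ml.

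CPC-3 is the Neurospora counterpart of GCN2, which phosphorylates the α subunit of the initiation factor eIF2 when uncharged tRNA or stalled ribosomes accumulate, and this lowers translation initiation. Ribosome density per mRNA reflects both how often ribosomes start and how fast they move, so a slow start and a fast passage lower it alike. All values are relative within a library, so that a change in the total number of ribosomes on mRNA cannot be seen in them, and in bulk mycelia less RNA per cell cannot be told apart from fewer cells that express a gene.

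Sequencing depth, recovered from the interval bounds as reads in CDSs, was 1223317 to 6959870 for RPFs from Δcpc-3 and 2803091 to 10035053 for RPFs from WT strains. For mRNA it was 1267271 to 1773625 in Δcpc-3, against 948299 to 1203368 in WT. The median member had 390.3 to 2446 reads in the Δcpc-3 RPF libraries and 852 to 3154 in the WT RPF libraries. In the mRNA libraries it had 376.8 to 497 reads in Δcpc-3 and 305 to 369 in WT strains. The deleted gene, cpc-3 (NCU01187), stood at 0.407 to 1.27 ppm in the Δcpc-3 mRNA libraries against 18.2 to 26.2 in the WT mRNA libraries, and at 0 to 0.379 against 12.1 to 14.3 in the RPF libraries, as the labels require. Replicates 1 to 3 and replicate 4 of Δcpc-3 1xWT-EDP stood apart from each other. Over the genes of the range their median absolute log2 difference was 0.27 to 0.29, against 0.15 to 0.19 among replicates 1 to 3 and, to the 9 Δcpc-3 libraries of the other reporters, 0.16 to 0.24 from replicate 4 and 0.19 to 0.28 from replicates 1 to 3. The members' median density difference in the 1xWT-EDP background was 0.17 with all 4 libraries, 0.22 with replicates 1 to 3 and 0.19 with replicate 4. For 28 members this difference had opposite signs with the 2 sets of libraries, above 0 with replicates 1 to 3 for 21 and with replicate 4 for 7. Among the genes named below, NCU08397, NCU04195, NCU05069, prm-3, elp3, NCU04118, pkac-1, al-1, NCU09056 and tre-2 belong to the 21, and cfp, emp-6, NCU00951 and NCU04272 to the 7. Both sets were set over the same 1 mRNA library of Δcpc-3 1xWT-EDP, which the labels tie to neither. Of the members flagged below for this mRNA level, NCU04713 and stk-52 were low in it, with RPF replicates 1 to 3 below replicate 4. pkac-1 was high in it and NCU10058 low, both with replicates 1 to 3 above replicate 4. Which set the mRNA library goes with was not tested. Of the 100 members, 96 kept their place without replicate 4 and 83 without replicates 1 to 3. Among the WT RPF libraries, replicate 3 of each reporter had a median ratio of deposited FPKM to midpoint over the members of 1.01 to 1.05, against 0.852 to 0.942 in replicates 1 and 2, and without replicate 3 of every group 79 members kept their place.

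The density of the members differed little between the strains, on the scale used by the rule. Their mean log2 density difference over the 4 reporters had a median of 0.15 and ran from -0.07 to 1.12, whereas the median over the 2296 genes of the range was -0.43. Per reporter the members' median was 0.14 in 3xOPT-EDP, 0.13 in 1xOPT-EDP, 0.11 in 3xWT-EDP and 0.17 in 1xWT-EDP, and the median of the range was -0.47, -0.43, -0.50 and -0.31 in the same order. The difference was above 0 in all 4 reporters for 43 members (1.87% of the range, all of them members by the rule), in 3 reporters for 28, in 2 for 22 and in 1 for 6. NCU02580 was below 0 in all 4 reporters, with a mean of -0.07. In all, 57 members were below 0 in at least 1 reporter. A mean difference of at least 0.5 was reached by 7 members and by 2 of the 2196 genes of the rest. The highest, 1.12, is that of NCU06557, which has few reads and from which no direction is read.

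**Figure D1:**
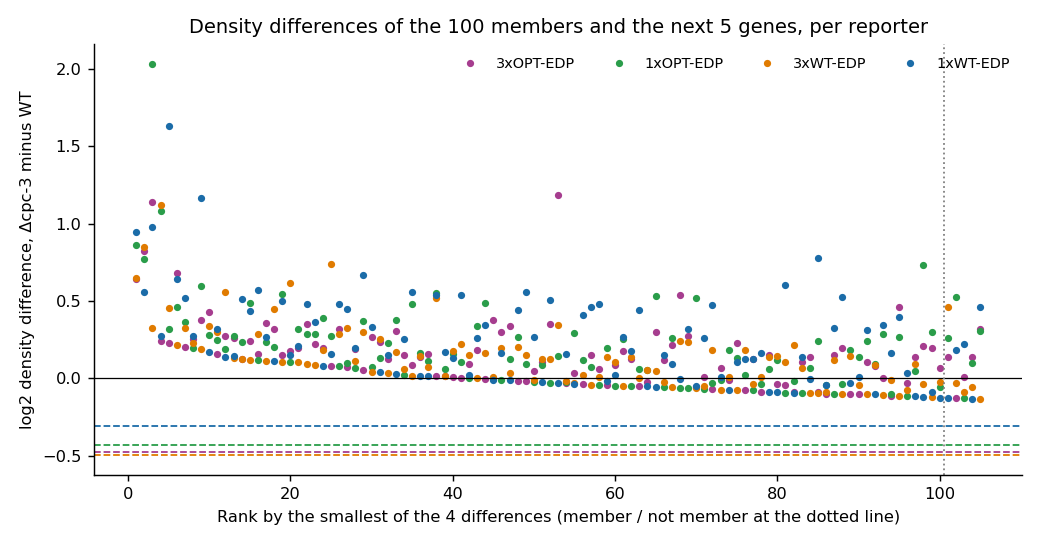
Log2 ribosome density difference, Δcpc-3 minus WT, of the 100 members and the 5 genes that follow, in the order of the smallest of the 4 differences (x axis: rank). Each point is 1 gene in 1 reporter background, dashed lines are the medians of the 2296 genes of the range in the same colours, from -0.50 to -0.31. All points of the members lie above the 4 dashed lines, and from rank 44 on at least 1 point per gene lies below 0.

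The limit of the list was narrow. The last member, NCU04272, had a smallest difference of -0.12 and the first gene outside, acu-9 (NCU10007), which encodes the malate synthase of the glyoxylate cycle, had -0.13. The mean difference of acu-9, 0.18, was above that of the last member, -0.03. The smallest difference of NCU04272 lies in 1xWT-EDP, where it was -0.36 with replicates 1 to 3 and 0.41 with replicate 4. Spread over the reporters was small among members, with a median SD of 0.15 against 0.33 in the rest of the range, since the rule ranks by the smallest value.

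The values behind the choice matter for the sign. The authors deposited for each gene both an FPKM and the bounds of its interval. In the Δcpc-3 RPF libraries the FPKM of the members were well below the midpoints, more so than those of the range as a whole. The median ratio of FPKM to midpoint over the members was 0.517 to 0.602 in 10 of the 13 Δcpc-3 RPF libraries and 0.831 to 0.877 in replicates 1 to 3 of 1xWT-EDP. It was 0.852 to 1.05 in the WT RPF libraries, and in the mRNA libraries 1.00 to 1.02 in Δcpc-3 and 1.00 to 1.01 in WT strains. Over all genes of the range the median ratio was 0.683 to 0.778 in the same 10 Δcpc-3 RPF libraries. There it was 0.909 to 0.965 in replicates 1 to 3 of 1xWT-EDP and 0.939 to 1.01 in the WT RPF libraries. With the deposited FPKM, the members' median density difference was -0.38 and that of the range -0.72, and 82 of 100 members were above this median of the range. Only 4 genes of the range, all of them members, had a smallest difference above 0, and 30 members stayed among the first 100. The 4 were NCU04713, NCU05045, NCU07063 and NCU09056, the last of which had a smallest difference below 0 by midpoints. In the WT mRNA libraries they had 25.5 to 31.5, 36.5 to 73.0, 34.5 to 65.5 and 47.0 to 69.0 reads in this order. Their WT densities thus rest on few mRNA reads. Of the 96 members with a mean difference above 0, 86 were below 0 on the FPKM scale. The mean differences of acu-6, stk-52, gpi-1, ace-8 and vma-2, positive in the values below, were -0.078, -0.39, -0.75, -0.84 and -0.31 on the FPKM scale. What made the FPKM and the midpoints differ was not tested.

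**Figure D2:**
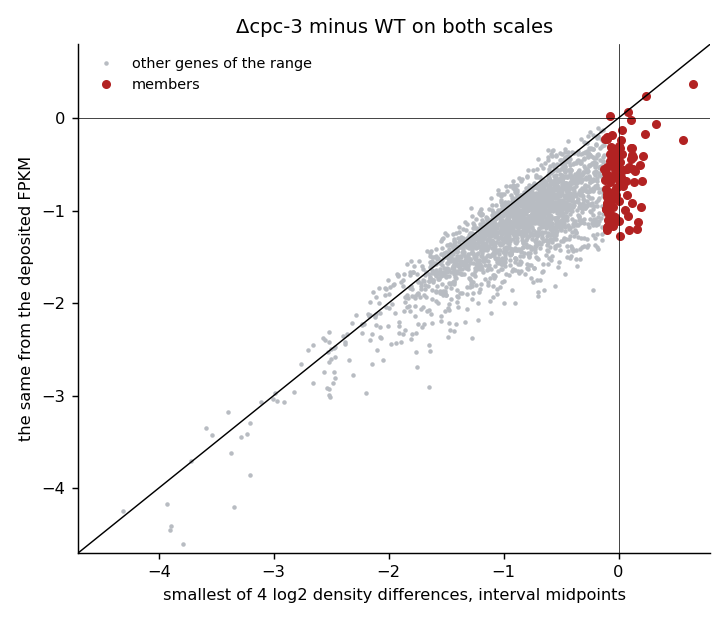
Smallest of the 4 log2 density differences, Δcpc-3 minus WT, from the interval midpoints (x axis) and from the deposited FPKM (y axis), for the 100 members (red) and the rest of the range (grey), with the line of equal values. Most members lie below the line and below 0 on the FPKM scale, where 4 members lie above 0.

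At the head of the list were 6 genes whose mRNA and RPF levels were both several times higher in the Δcpc-3 strains, NCU04713, NCU06557, NCU03107, NCU08641, stk-52 (NCU08767) and NCU06376. They were the 6 members with a mean mRNA difference of at least 1 on the log2 scale, and 180 genes of the rest of the range, 8.20%, also reached that. NCU04713 had an mRNA level of 114, 111, 107 and 63.7 ppm in the Δcpc-3 strains with 3xOPT-EDP, 1xOPT-EDP, 3xWT-EDP and 1xWT-EDP, against 13.1, 12.8, 11.7 and 13.3 in the WT strains. Its RPF level was 48.1 to 149 ppm with a median of 128 over the 13 Δcpc-3 libraries, against 7.65 to 10.01 with a median of 8.72 over the 12 WT libraries. The groups did not overlap in either assay. Levels higher in Δcpc-3 without overlap were seen in 39.4% of the range for mRNA and in 4.22% for RPF. In its RPF data the 3 lowest Δcpc-3 libraries, 48.1 to 72.0, were replicates 1 to 3 of 1xWT-EDP, and replicate 4 held the highest value, 149. The density of NCU04713 was 1.00, 1.20, 1.23 and 1.28 in Δcpc-3 and 0.641, 0.661, 0.782 and 0.666 in WT strains in the same order of reporters, a mean log2 difference of 0.78 ± 0.15 (SD over 4 reporters), where the RPF difference was 3.69 and the mRNA difference 2.92. In the 1xWT-EDP background the difference was 0.48 with replicates 1 to 3 and 1.81 with replicate 4.

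The gene stk-52, one of the serine/threonine protein kinase genes, showed the same kind of pattern with a smaller density difference. Its mRNA level was 321, 303, 322 and 207 ppm in Δcpc-3 strains, against 41.9, 47.3, 44.3 and 45.4 in WT strains, and its RPF level was 202 to 324 ppm (median 268) against 27.6 to 39.2 (median 33.4). Every Δcpc-3 library was above every WT library. Density was 0.876, 0.873, 0.951 and 1.08 in Δcpc-3 and 0.760, 0.678, 0.757 and 0.750 in WT strains, a mean log2 difference of 0.35 ± 0.13. The range held 33 genes with an stk symbol and stk-52 was the 1 among the members.

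NCU08641, for which the gene table gives no symbol, had the largest RPF difference of all members, 3.86 on the log2 scale, with 161 to 322 ppm (median 263) in Δcpc-3 against 12.4 to 22.7 (median 17.6) in WT libraries. Its mRNA was 193, 247, 281 and 182 ppm in Δcpc-3 strains, against 29.9, 21.1, 19.3 and 17.6 in WT strains. NCU03107 and NCU06376 differed most in the 1xWT-EDP background, by 1.63 and 1.17, and by 0.23 to 0.46 and 0.19 to 0.60 in the other 3. With replicate 4 alone in that background the differences were 2.22 and 1.67, and with replicates 1 to 3 they were 1.37 and 0.95. Their density in the WT strain with 1xWT-EDP, 0.320 and 0.330, was also below the 0.620 to 0.772 and 0.434 to 0.653 of the other WT strains.

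NCU06557 rests on few RPF reads. Its mRNA level was 95.5, 87.6, 111 and 72.0 ppm in Δcpc-3 and 12.4, 15.3, 21.4 and 11.4 in WT strains. Its RPF level was 0.720 to 2.79 ppm (median 2.08) in Δcpc-3 libraries, where it had 4.5 to 46.0 reads, and 0 to 0.233 (median 0) in WT libraries, where 7 of 12 libraries were at 0 and none had more than 4.0 reads. Density was 0.0129 to 0.0315 in Δcpc-3 and 0.00649 to 0.0160 in WT, where the WT values were set largely by the 0.1 that was added to each level. Its mean difference of 1.12 ± 0.71 became -1.06 when 1 was added instead, and no direction is read from it.

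**Figure D3:**
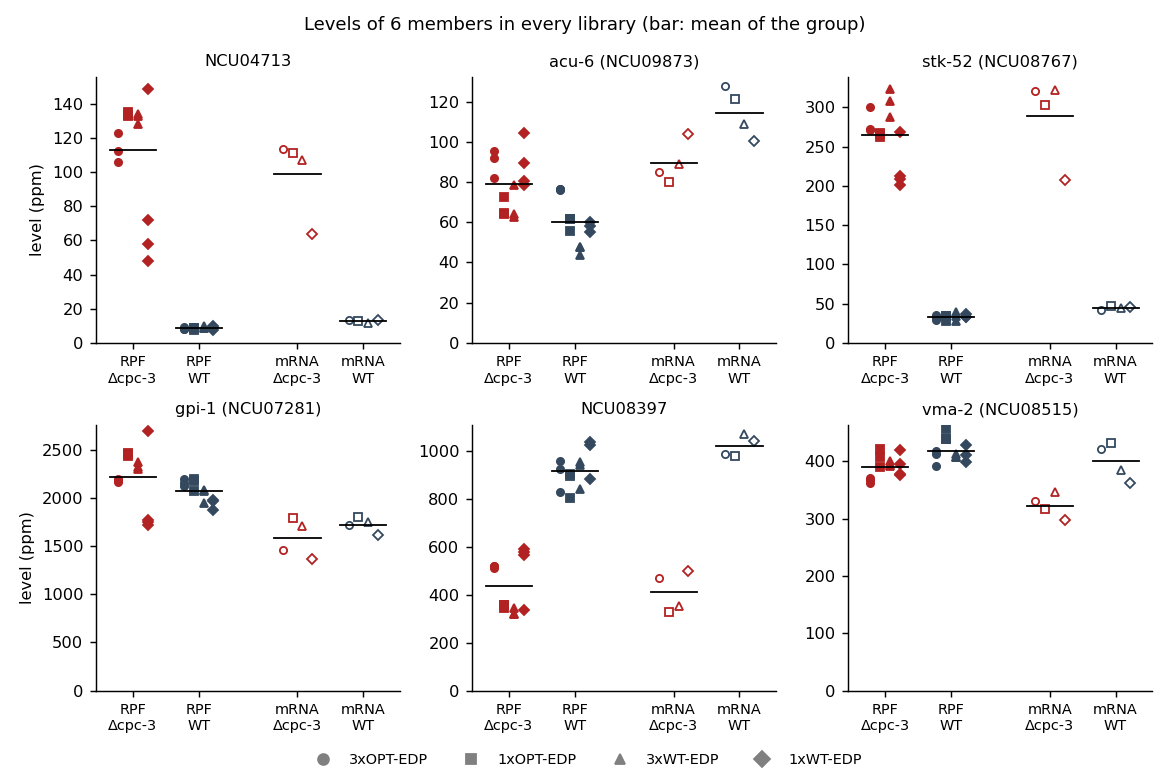
RPF (filled) and mRNA (open) levels (y axis, in ppm) of 6 members in every library, Δcpc-3 in red and WT in dark blue, with 1 marker shape per reporter and a bar at the mean of each group. In NCU04713 and stk-52 both assays were higher in Δcpc-3, in NCU08397 both were lower, and in acu-6 the RPF level was mostly higher and the mRNA level mostly lower in Δcpc-3.

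The gene acu-6 (NCU09873), which encodes phosphoenolpyruvate carboxykinase of gluconeogenesis, had a higher mean RPF level and a lower mean mRNA level in Δcpc-3. Its mRNA level was 85.0, 80.1, 89.1 and 104 ppm in Δcpc-3 strains, against 128, 121, 109 and 100.4 in WT strains. RPFs of acu-6 stood at 62.6 to 104 ppm (median 78.6) in Δcpc-3 and 43.8 to 76.7 (median 59.3) in WT libraries. The groups overlapped in both assays, but within each reporter every Δcpc-3 replicate had a higher density than every WT replicate, each set against the 1 mRNA library of its strain and reporter. Density was 1.06, 0.839, 0.769 and 0.848 in Δcpc-3 and 0.597, 0.492, 0.426 and 0.576 in WT strains, a mean log2 difference of 0.75 ± 0.13. That complete separation within all 4 reporters held for 9 members (0.392% of the range, all of them members): NCU04713, acu-6, stk-52, gpi-1, NCU06376, NCU02797, ace-8, vma-2 and NCU05850. It rests on the same midpoint densities that ranked the members and adds no support to them. The table has 6 genes with an acu symbol, named for failure to grow on acetate, and all lie in the range. Beside acu-6 their smallest differences were -0.13 for acu-9, -0.24 for acu-3, which encodes isocitrate lyase, -0.37 for acu-8, -0.57 for acu-15 and -0.66 for acu-5, which encodes acetyl-CoA synthetase. This comparison with genes of the same symbol, and those that follow, were chosen after the values were seen.

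The 3 members with the highest mRNA levels were cfp, ace-8 and emp-6. They are described here with other enzyme genes picked by their symbols after the values were seen, and how many such genes of the range were not members was not counted. gpi-1 (NCU07281), the glucose-6-phosphate isomerase gene, had the most even difference over the reporters among the first 15 members, 0.24 ± 0.03, but its value in 1xWT-EDP, 0.27, was 0.090 with replicates 1 to 3 and 0.71 with replicate 4. Its mRNA level was 1460.1, 1794, 1709 and 1369 ppm in Δcpc-3, against 1721, 1801, 1750.4 and 1616 in WT strains, and its RPF level was 1724 to 2697 (median 2301) against 1882 to 2202 (median 2081). RPF levels overlapped, with the lowest 3 Δcpc-3 libraries again in 1xWT-EDP, while density was 1.37 to 1.50 in Δcpc-3 and 1.16 to 1.26 in WT strains. For ace-8 (NCU06075), the pyruvate kinase gene, all 4 mRNA levels in Δcpc-3, 2033 to 2173 ppm, were below all 4 in WT strains, 2662 to 3012. RPFs of ace-8 stood at 2658 to 3208 ppm in Δcpc-3 and 2827 to 3529.7 in WT libraries, which left a density of 1.32 to 1.45 against 1.11 to 1.23.

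The 2 members named for the Embden-Meyerhof pathway, emp-1 (NCU02542) and emp-6 (NCU02252), had small differences of 0.13 ± 0.08 and 0.07 ± 0.07, and the third emp gene of the range, emp-3, had a smallest difference of -0.32. For emp-1 the RPF level was 503 to 563 ppm in Δcpc-3 and 445 to 482 in WT libraries, without overlap, and for emp-6 it was 2086 to 2597 against 2223 to 2494. The most abundant member, cfp (NCU02193), encodes pyruvate decarboxylase, the fermentative enzyme that also forms filaments in the cytoplasm. Its mRNA level was 5505 to 6315 ppm in Δcpc-3 and 5984 to 6858 in WT strains, its RPF level 7289.6 to 8412 against 7110.3 to 9042, and its density 1.22 to 1.40 against 1.20 to 1.25, with a mean difference of 0.09 ± 0.06. dak-1 (NCU03779), a dihydroxyacetone kinase gene, had a mean difference of 0.14 ± 0.32 and differed mainly in 1xWT-EDP, by 0.61. Of these genes, gpi-1 and ace-8 held a separation of the strains in all replicates and reporters, and emp-1, emp-6, cfp and dak-1 did not. This is by the midpoints that ranked them and does not grade the genes. On the FPKM scale the mean differences were -0.75 and -0.84 for gpi-1 and ace-8. They were -0.30, -0.90, -0.57 and -0.28 for emp-1, emp-6, cfp and dak-1.

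Both subunits of the catalytic head of the vacuolar proton pump that fall in the length range were members. vma-1 (NCU01207) and vma-2 (NCU08515) encode the A and B subunits of the V-ATPase, which acidifies the vacuole. For vma-2 the mRNA level was 330.3, 318, 346 and 298 ppm in Δcpc-3, against 421, 433, 385 and 362 in WT strains, without overlap. RPFs of vma-2 stood at 363 to 422 ppm (median 392) in Δcpc-3 and 392 to 456 (median 414) in WT libraries, and the mean density difference was 0.21 ± 0.09. vma-1 had a mean difference of 0.23 ± 0.19, with density 1.11 to 1.45 in Δcpc-3 and 1.00 to 1.13 in WT strains and an overlap in the 3xOPT-EDP background, where the difference was -0.01. The other 11 vma genes of the table are 228 to 1446 nt long and could not be members. Their mean differences were -0.21, for vma-8, to 0.71, for vma-9, and 9 of the 11 were above 0.

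Among the chaperone genes, hsp88 (NCU05269) and hsp70-1 (NCU09602) were members. hsp88 had an RPF level of 429 to 505 ppm in Δcpc-3 and 451 to 496 in WT libraries, and an mRNA level of 386 to 424 against 433 to 483, without overlap in mRNA. For hsp70-1, mRNA was 1669 to 1814 ppm in Δcpc-3 and 2239 to 2344 in WT strains and RPF was 1945 to 2205 against 2577 to 2807, so that both levels were lower without overlap, while the density ranges, 1.13 to 1.27 against 1.13 to 1.20, overlapped. Reads of hsp70-1 may be shared with near-identical paralogs, and its levels are uncertain to that extent. The other 6 hsp genes of the range had smallest differences of -0.19 for hsp98, -0.23 for hsp80, -0.28 for hsp70-5, -0.63 for hsp78, -0.70 for hsp70-2 and -1.01 for hsp60.

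The actin-binding proteins coronin and fimbrin are encoded by crn (NCU00202) and fim (NCU03992). Coronin had a mean difference of 0.12 ± 0.10 and fimbrin of 0.04 ± 0.15, and their RPF levels were 129 to 171 and 209 to 258 ppm in Δcpc-3 libraries, against 144 to 164 and 252 to 289.9 in WT libraries. Beside stk-52, 2 kinase genes with roles in hyphal growth were members. pkac-1 (NCU06240), a catalytic subunit of protein kinase A, had mRNA levels of 92.6 to 113 ppm in Δcpc-3 and 79.8 to 86.4 in WT strains, without overlap, and a mean density difference of 0.00 ± 0.06. Such a separation in mRNA, higher in Δcpc-3, was seen in 39.4% of the range. cot-1 (NCU07296), the NDR kinase of hyphal tip extension, was the last member but 1 with 0.07 ± 0.21.

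The other members with a symbol were spread over metabolism and gene expression, and none had a mean density difference above 0.21. al-1 (NCU00552), the phytoene dehydrogenase gene of carotenoid synthesis, had 0.03 ± 0.11, and in 1xWT-EDP 0.10 with replicates 1 to 3 and -0.81 with replicate 4. cat-1 (NCU08791), a catalase gene, had -0.01 ± 0.13 and the trehalase gene tre-2 (NCU04221) -0.04 ± 0.06, on the low side for members. elp3 (NCU01229), of the tRNA-modifying Elongator complex, had 0.21 ± 0.26 and the histone deacetylase gene hda-3 (NCU00824) 0.06 ± 0.11. The isoleucine and valine synthesis gene ilv-5 (NCU02397) had 0.12 ± 0.22, gnn (NCU06698) 0.12 ± 0.08 and the protein arginine methyltransferase gene prm-3 (NCU01669) 0.16 ± 0.15. For prm-3, mRNA was 12.4 to 23.4 ppm in Δcpc-3 and 28.3 to 49.1 in WT strains and RPF was 12.4 to 19.5 against 27.6 to 33.0, without overlap in either, and its mean RPF difference was -0.88 on the log2 scale. In all, 24 of the 100 members and 401 of the 2296 genes of the range had a symbol, and the last 4 by rank, dak-1, cat-1, tre-2 and cot-1, were added to the named members after their values were seen.

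The largest lower levels in Δcpc-3 belonged to NCU08397. Its mRNA level was 471, 328, 353 and 498 ppm in Δcpc-3, against 987, 980.4, 1073 and 1042 in WT strains, and its RPF level was 321 to 592 ppm (median 357) in Δcpc-3, against 806 to 1037 (median 918) in WT libraries. Its density was 1.10, 1.08, 0.935 and 1.04 in Δcpc-3 and 0.917, 0.888, 0.852 and 0.945 in WT strains. The mean RPF difference was -1.12 and the mean mRNA difference -1.33 on the log2 scale, and density differed by 0.20 ± 0.08. In 1xWT-EDP the density difference was 0.14 with all libraries, 0.30 with replicates 1 to 3 and -0.48 with replicate 4. Its direction there depends on which RPF libraries are set over the 1 mRNA library. NCU04118 was similar, with RPF levels of 84.6 to 122 ppm in Δcpc-3 and 144 to 171 in WT libraries and mRNA levels of 78.8 to 109 against 154 to 201, and so was NCU04192, with 187 to 227 against 235 to 279.6 for RPF and 148 to 172 against 221 to 246 for mRNA. NCU04192 and the member NCU04195 lie 3 genes apart in the NC12 gene order, and NCU01845 and NCU01843 lie 2 apart. No other pair of members was within 3 genes of each other.

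Of the remaining members of the first 15, NCU05045 had the widest spread over the reporters, 0.68 ± 0.49 by midpoints. On the FPKM scale its mean difference was 0.75 and its smallest 0.24. Its density was 0.519, 0.691, 0.709 and 0.515 in Δcpc-3 and 0.439, 0.327, 0.326 and 0.426 in WT strains, from an RPF level of 7.20 to 17.9 ppm in Δcpc-3 and 8.43 to 17.7 in WT libraries. NCU02797 had 0.31 ± 0.11, with 0.081 from replicates 1 to 3 and 0.41 from replicate 4 in 1xWT-EDP, NCU00936 0.32 ± 0.17 and NCU10058 0.25 ± 0.18. In these 3 genes all 4 mRNA levels in Δcpc-3 were below those in WT, 1128 to 1399.8 against 1407 to 1532 ppm, 68.9 to 75.2 against 87.8 to 96.9, and 704.1 to 839 against 975 to 1048. Their RPF levels overlapped, 1491 to 1926 ppm in Δcpc-3 against 1429.7 to 1655 in WT libraries, 62.8 to 104 against 72.9 to 88.6, and 1028 to 1267 against 955 to 1338.

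Splitting the density difference by midpoints into its parts, the members differed from the rest of the range more in mRNA than in RPF. The mean log2 mRNA difference, Δcpc-3 minus WT, had a median of -0.10 over the members and 0.40 over the rest of the range, and the mean RPF difference had medians of 0.08 and -0.06. On the FPKM scale the median density differences were -0.38 and -0.73, and the parts were not split there. The order of the RPF medians, and the counts by RPF sign below, therefore hold for midpoints only. Of the members, 38 were above 0 in both (41.8% of the rest), 38 were below 0 in both (14.1% of the rest), and 24 had RPF above and mRNA below 0 (0.638% of the rest). The remaining combination, RPF below and mRNA above 0, held no member and 956 genes, 43.5%, of the rest. The mRNA level of all 4 Δcpc-3 libraries was below that of all 4 WT libraries in 31 members (3.75% of the range) and above it in 11 (39.4%). The RPF level of all Δcpc-3 libraries was above that of all WT libraries in 11 members (4.22%) and below it in 11 (7.32%). The rule used both parts of these differences, and nothing further is read from the counts.

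**Figure D4:**
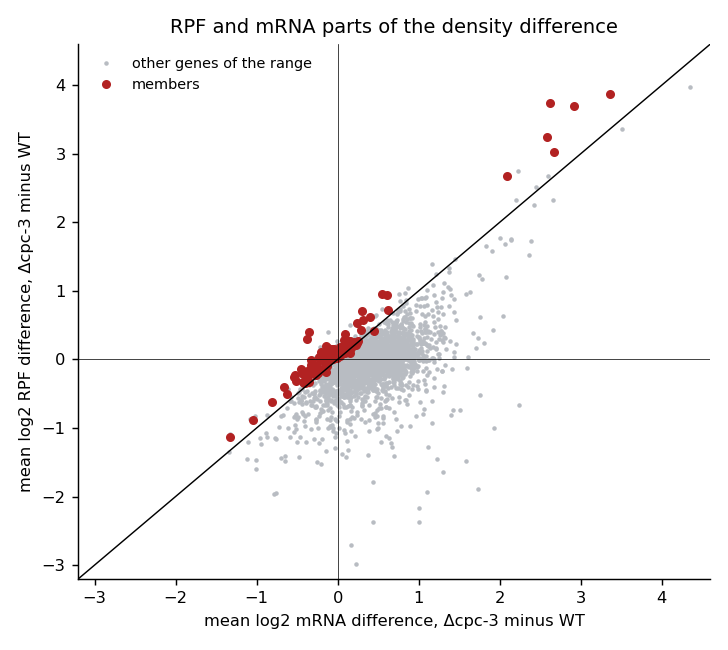
Mean log2 RPF difference (y axis) against mean log2 mRNA difference (x axis), both Δcpc-3 minus WT over the 4 reporters, for the 100 members (red) and the other 2196 genes of the range (grey). On the diagonal the 2 differences are equal and the density difference is 0, and 96 members lie above it. The 6 members at the upper right are NCU04713, NCU06557, NCU03107, NCU08641, stk-52 and NCU06376.

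Although chosen as long genes, the members lay at the short end of the range. Their CDS lengths were 1503 to 3204 nt with a median of 1692 nt, against a median of 2206.5 nt in the rest of the range. Members were 9.92% of the 242 genes of 1500 to 1600 nt, 10.3% of the 388 genes up to 1800 nt, 5.30% of the 302 genes up to 2000 nt, 2.78% of the 539 genes up to 2500 nt, 1.30% of the 308 genes up to 3000 nt and 0.193% of the 517 genes above that. The median density difference of all genes in these classes was -0.27, -0.31, -0.33, -0.39, -0.50 and -0.58 in the same order, with median mRNA differences of 0.20, 0.26, 0.31, 0.38, 0.44 and 0.53 and median RPF differences between -0.07 and -0.04. The longest member, NCU04726 with 3204 nt, had an mRNA level of 29.0, 31.4, 26.0 and 23.6 ppm in Δcpc-3 and 19.3, 30.1, 21.1 and 23.3 in WT strains, and an RPF level of 16.3 to 23.1 against 11.6 to 15.6 ppm. Its RPF groups did not overlap and its density difference was 0.28 ± 0.27. Next were NCU07027 with 2664 nt, whose difference was 0.02 ± 0.09, and NCU04272 with 2604 nt.

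**Figure D5:**
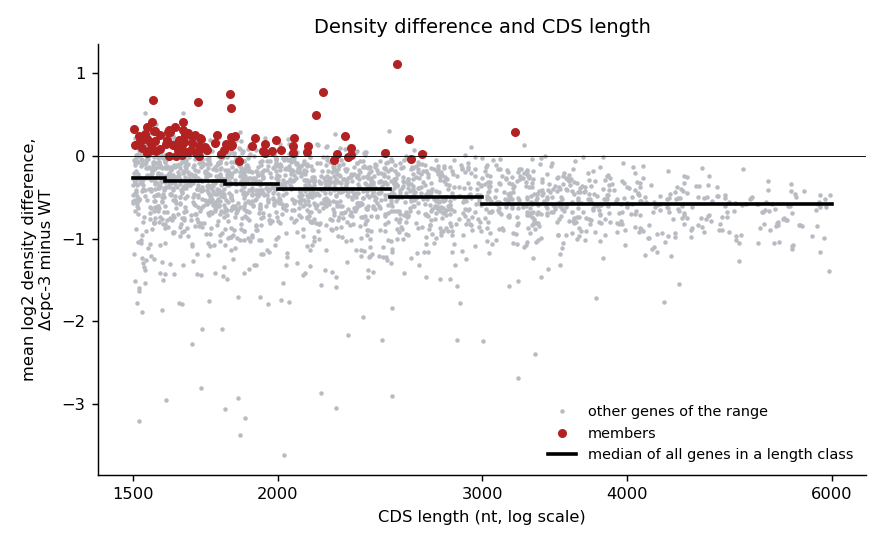
Mean log2 density difference, Δcpc-3 minus WT, against CDS length on a log scale, for the members (red) and the rest of the range (grey), with the median of all genes of each length class as a black bar, from -0.27 for the shortest to -0.58 for the longest class. Of the members, 95 are shorter than 2500 nt, and the 1 above 3000 nt is NCU04726.

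The members were also abundant for their range. Their mean mRNA level had a median of 189 ppm in Δcpc-3 and 203 in WT strains, against 35.9 and 26.2 in the rest of the range. Density itself had a median of 1.07 over the members and 0.600 over the rest of the range in Δcpc-3, and of 0.971 and 0.828 in WT strains. These densities, and the mRNA levels in them, are the values that the rule used. Ranking by the smallest difference also favours genes with a small spread between reporters. Abundance and density are therefore not traits found apart from the choice. NCU06557 was the 1 member whose interval reached down to 0 in any library.

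The reporters offer a comparison that the rule did not use, since it ranked strain differences within each reporter. RPF levels were compared between OPT and WT codons, averaged over strains and copy numbers, and between 3x and 1x, averaged over strains and codons, with limma over all 25 RPF libraries and 6987 genes and Benjamini-Hochberg adjustment. The labels number the libraries as replicates of a strain and reporter, and the p-values measure only the spread between them. Between codon versions 2 members were higher and 1 was lower with OPT codons, where 0.701% and 0.744% of all genes tested passed in these directions (adjusted p under 0.05). Between copy numbers 3 members were higher and 4 were lower with 3x, against 0.2% and 0.615% of all genes. The median change of the members, 0.03 for codons and 0.00 for copies on the log2 scale, was close to that of all genes, -0.01 and -0.03. At an unadjusted limma p under 0.05 there were 20 and 26 of the 100 members, against 976 and 956 of the 6987 genes. Without replicate 4 of Δcpc-3 1xWT-EDP, 19 and 22 members passed instead of 3 and 7, and of all genes 558 and 493 instead of 49 higher and 52 lower for codons and 57 for copies, so that the counts rest on 1 library. Without replicates 1 to 3 of that group, 4 and 3 members passed.

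NCU05069 changed most. Its RPF level was 19.6 to 21.3 ppm in the 3xOPT-EDP, 30.5 to 30.7 in the 1xOPT-EDP and 22.8 to 25.6 in the 3xWT-EDP libraries of Δcpc-3, and 80.1, 93.2, 96.8 and 27.9 in replicates 1 to 4 of 1xWT-EDP. In WT strains it was 11.9 to 12.9, 12.8 to 15.7, 16.4 to 18.3 and 24.6 to 28.3 in the same order. The 1xWT-EDP libraries were the highest in each strain, apart from replicate 4 of Δcpc-3, which lay below the 1xOPT-EDP libraries. The change was -0.68 ± 0.14 (SE) with OPT codons (limma, adjusted p = 0.0154) and -0.71 ± 0.14 with 3x (adjusted p = 0.0247). Without replicates 1 to 3 of Δcpc-3 1xWT-EDP it was -0.37 and -0.39, with limma adjusted p-values of 0.000288 and 0.000362. The change with codons held under all 31 alternatives tried, and that with copies was lost in 4, without replicate 1 of WT 1xWT-EDP, replicate 1 of WT 1xOPT-EDP, replicate 2 of WT 3xOPT-EDP or replicate 2 of Δcpc-3 3xWT-EDP, where the adjusted p in limma reached 0.0539 at most. Its mRNA level in Δcpc-3 was 18.5, 31.6, 26.4 and 70.3 ppm, also highest with 1xWT-EDP, against 25.4, 16.2, 24.2 and 24.2 in WT strains.

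NCU04474 was lower with 3x, with a change of -0.34 ± 0.05 (limma, adjusted p = 0.00575), and this held under all 31 alternatives. Its RPF level was 92.5 to 104 and 81.2 to 94.0 ppm in the 3xOPT-EDP and 3xWT-EDP libraries of Δcpc-3, against 127 to 136 and 124 to 188 in the 1xOPT-EDP and 1xWT-EDP libraries, without overlap. In WT strains the values were 74.9 to 76.3 and 59.8 to 67.6 with 3x, against 73.1 to 82.4 and 66.7 to 70.4 with 1x, so that the change was carried mainly by Δcpc-3, a difference between strains that was not tested. ilv-5 was lower with 3x, with a change of -0.25 ± 0.05 (limma, adjusted p = 0.0157), with 182 to 205 ppm in the 6 libraries of Δcpc-3 with 3x against 235 to 307 in the 7 with 1x, and 198 to 241 in WT strains with 3x against 195 to 240 with 1x. It passed in all alternatives but the deposited FPKM. NCU01845 was higher with OPT codons by 0.23 ± 0.04 (limma, adjusted p = 0.00288), with 84.8 to 108 ppm with OPT against 92.5 to 100.7 with WT codons in Δcpc-3, where the ranges overlapped, and 67.4 to 83.8 against 47.1 to 59.4 in WT strains, where they did not. This call was also lost only with the deposited FPKM.

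The remaining calls were less stable, and NCU04415 among them was named after its values were seen. NCU07607 was higher with OPT codons by 0.21 and lost the call in 7 of 31 alternatives. NCU06376 and NCU02810 were higher with 3x by 0.35 and 0.17 and lost it in 26 and 23 alternatives, NCU04415 was lower with 3x, with a change of -0.16, and lost it in 23, and NCU00951 was higher by 0.13 and lost it in 12. In the 8 mRNA libraries no member passed in limma for codons or copies, where 0% and 0.123% of 8917 genes did so in any direction, and at an unadjusted p under 0.05 there were 0 and 1 members, where 3.41% and 4.78% of all genes had such a p.

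None of the 3 genes listed for the general amino acid control, in which CPC-3 acts, was in the range. cpc-1 (NCU04050), the Gcn4-type transcription factor of that response, had a mean density difference of -0.51 ± 0.22 and an mRNA level of 1162 to 1425 ppm in Δcpc-3 against 742 to 914 in WT strains. cpc-2 (NCU05810), a ribosome-associated protein of the RACK1 family, had -0.49 ± 0.20. Both CDSs are under 1500 nt, 813 and 951 nt, and cpc-3 itself, at 4941 nt, was left out by its mRNA level in the deletion strain.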

How the data were processed

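RPF and mRNA libraries of Δcpc-3 and WT mycelia were analysed from 1 deposited table per library, each with 9731 entries, 2 of them reporter entries. The submitters' processing notes name Bowtie2 and Cufflinks, without versions. Reads were mapped to CDS regions by the authors, and the genome build is not given in the sources used here. The deposited FPKM and the 2 bounds of its interval were made by the authors with Cufflinks. The coverage column deposited by the authors was left out. From the bounds, which lie on whole reads within 0.01 read, midpoints were taken and scaled to a sum of 1e+06 per library, and 0.1 was added before logarithms. The midpoint is not the FPKM, and where they differ the values change, as the report states.

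The members and lists were chosen with earlier results of these data known. Groups came from the labels. Named genes were the first 15 members, ranks 100 and 101, up to 20 members with a symbol by rank, the 3 longest, the 3 of highest mRNA level, the 3 of largest and of smallest RPF difference, the 3 of widest spread, members called in a reporter contrast (the 3 largest per direction) and the amino acid control genes. Other members are given by counts and ranges. Names came from the NC12 RefSeq gene table, which held all 100 members. Reporter contrasts were tested with limma 3.58.1 in R 4.3.3 on log2 levels of genes with a mean of at least 1, with Benjamini-Hochberg adjustment over all genes (threshold 0.05), and the code was tested on simulated data. Rankings used Python 3.11.15 with numpy 2.4.6 and pandas 2.3.3, and plots matplotlib 3.10.9. The alternatives tried were the deposited FPKM, other added constants, filters, scalings and replicate summaries, each library or reporter left out, and a replicate block. Product classes, promoter motifs and protein features were not analysed here.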

Additional observations from a re-analysis of the deposited data

Results flagged for a closer look

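Among 35 named members, 105 sets of 4 reporter values, which share genes and libraries, were examined for a value far from the other 3. The nominal rate of the rule is about 1 in 20 sets, and 9 were found. Of these, 7 concern 1xWT-EDP in one strain or in the strain difference. In Δcpc-3 the mRNA level with 1xWT-EDP was 63.7 ppm for NCU04713, 207 for stk-52 and 704.1 for NCU10058, each below the other 3 reporters, and 113 for pkac-1, above them. The density difference with 1xWT-EDP was 1.63 for NCU03107, above the others, and 0.017 for hsp88, below them. For hsp88 the Δcpc-3 mRNA level with 3xWT-EDP, 386 ppm, was below the other 3. For gnn the Δcpc-3 mRNA level with 3xOPT-EDP, 375 ppm, was above the other 3, and the WT mRNA level with 1xWT-EDP, 426 ppm, was below them. Each mRNA value is 1 library.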

How the results depend on the processing

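With the deposited FPKM 30 members stayed among the first 100, 4 had a smallest difference above 0, and the members' median was -0.38. Of 96 members with a mean above 0 from the midpoints, 86 had a mean below 0 on that scale, among them -0.078 for acu-6 (NCU09873), -0.10 for NCU08641, -0.39 for stk-52 (NCU08767), -0.75 for gpi-1 (NCU07281), -0.087 for NCU06376, -0.92 for NCU02797, -0.84 for ace-8 (NCU06075), -0.32 for NCU04192, -0.50 for NCU08397, -0.34 for NCU10058, -0.20 for NCU00936, -0.31 for vma-2 (NCU08515), -0.30 for emp-1 (NCU02542), -0.38 for crn (NCU00202), -0.97 for hsp88 (NCU05269), -0.57 for cfp (NCU02193), -0.16 for gnn (NCU06698), -0.35 for vma-1 (NCU01207), -0.47 for prm-3 (NCU01669), -0.90 for emp-6, -0.96 for hsp70-1, -0.60 for fim, -0.56 for hda-3, -0.52 for NCU05850, -0.82 for NCU07027, -0.44 for NCU04118, -0.47 for cot-1, -0.37 for al-1, -0.29 for ilv-5, -0.28 for dak-1, -0.23 for pkac-1 and -0.072 for elp3. The change of NCU00951 with 3x was -0.015 with the FPKM. With 1 added to each level in place of 0.1, NCU06557 had a mean of -1.06. Centred on the median of the range, 100 members were above 0 with a median of 0.57, by construction. With the strain's mean mRNA 61 members stayed, and without 3xWT-EDP 62. Leaving out each RPF library left 93 to 99 members in place, 41 to 45 with all differences above 0 and medians of 0.14 to 0.16. Without replicate 3 of every group, chosen after seeing the data, 79 stayed. Members called for codons and copies were 1 and 2 with the FPKM, and for copies 4 without a filter, 4 with median-ratio scaling and 3 without replicates 1 to 3 of Δcpc-3 1xWT-EDP, also chosen after seeing the data. Leaving out each library gave 2 to 19 for codons and 2 to 22 for copies, and 80 to 558 and 20 to 493 of all genes. With a replicate block 19 and 22 members passed, and 602 and 514 of all genes. That block gives replicate 4 of Δcpc-3 1xWT-EDP a term of its own, which by construction drops it. Same-numbered libraries had a mean correlation of 0.021 over 84 pairs, with 10 over 0.1, against -0.009 over 189 pairs of different number, with 4 over 0.1. These are correlations of deviations from the group means, which ties the 2 averages to each other, so the second is no independent baseline. Since most same-numbered pairs were not over 0.1, the numbers were not taken as pairs, although 16 of 24 libraries correlated best with their own number, a hint from the data and not from the design. The cut at 0.1 cannot decide whether libraries of a number share an effect. The limma p-values without the block take no account of such an effect. With the FPKM, 63 and 13 of all genes passed. In mRNA, leaving out each library gave 0 members, and 0 to 4 and 0 to 27 of all genes. The causes were not tested. Among the RPF libraries depth limits NCU06557 most, with at most 4.0 reads in any WT RPF library. In mRNA, with 1 library per strain and reporter, NCU04713 had 25.5 to 31.5 reads and NCU08641 38.0 to 57.5 in WT strains.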
